A study of Mus musculus with 2 samples.

Results

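The motile cilia genes described here are the genes whose symbols begin with Dnah, Dnai, Dnaaf, Cfap, Rsph or Drc, with a digit after every prefix except Rsph. The rule found 65 of the 32285 gene rows, and no row carried a Dnai symbol. Of the 65, 64 are protein-coding genes and 1, Dnah2os, is a transcript antisense to Dnah2. The rule uses names and not any measured value, but it was set with earlier results of these data known. They were followed in 2 droplet single-cell libraries made from the locus coeruleus, the noradrenergic nucleus of the pons, which lies beside the fourth ventricle. The mice were wild type, of strain C57BL/6N, of both sexes and 3 to 4 weeks old, and none had been treated. The label protocols describe papain-dissociated, methanol-fixed cells and also sorted nuclei, without saying which of them a library holds. They describe the libraries as independent preparations but name no animals for either, so p-values below measure only the spread between these 2 libraries.

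Motile cilia are the beating hairs that ependymal cells carry on the walls of the brain ventricles, where they move cerebrospinal fluid. Their core, the axoneme, is a ring of doublet microtubules around a central pair. Dynein motors anchored to each doublet in outer and inner rows of arms slide the doublets past each other, and radial spokes, the central apparatus and the nexin-dynein regulatory complex keep that sliding in rhythm. Assembly factors fold and load the dynein arms in the cytoplasm before they enter the cilium. Neurons and astrocytes carry a single primary cilium that is built by intraflagellar transport and has no such motors.

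Library 1 held 304 barcodes with 5600693 unique molecular identifiers (UMIs, each a counted RNA molecule), and library 2 held 2796 barcodes with 6895380 UMIs. The median barcode had 11010 UMIs in library 1 and 1517 UMIs in library 2, and the shallowest had 4208 and 500. No cell barcode was shared between the libraries. After filtering, 294 and 2677 cells were kept, 2971 in all, where the series states 2578. Cells were clustered on 177 marker genes, none of them a motile cilia gene, so the classes were formed without the genes described here. The ependymal-like class was a single cluster of 19 cells in library 1 and 101 cells in library 2, with 289436 and 183656 UMIs. Tmem212, an ependymal marker, stood at 905 and 969 CPM (UMIs of a gene per 1000000 UMIs of the class) in it, against 0.382 and 1.92 CPM in all other cells. Foxj1, the transcription factor that drives the motile cilia programme, stood at 190 and 81.7 CPM, against 8.02 and 5.28 CPM. No UMI of Ttr, the main product of choroid plexus epithelium, was found in any cell kept, and the 8 choroid plexus markers summed to 44.91 and 21.78 CPM in the ependymal-like cells. Astrocyte markers summed to 729 and 620.7 CPM there, against 6534 and 5828 CPM in astrocyte-like cells. The part of those transcripts in the results was not tested.

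Ependymal-like cells carried most of the motile cilia transcripts of this tissue block. The 65 genes summed to 27240 CPM in library 1 and 29280 CPM in library 2 in the ependymal-like cells, that is, close to 3 in every 100 of their RNA molecules. In all other cells together the sum was 667.8 and 735.4 CPM. The class held 69.3% of all motile cilia UMIs in library 1 and 53.9% in library 2, with 19 of 294 and 101 of 2677 cells. Summed by role and not divided by length, the 10 inner arm dynein heavy chains came to 8280 ± 474 CPM in ependymal-like cells and 92.3 ± 27.1 CPM in all other cells (mean ± SD, n = 2 libraries). The 9 central apparatus genes came to 5340 ± 95.1 CPM in ependymal-like cells, against 158 ± 9.25 CPM in all other cells. The 7 dynein assembly factors act in the cytoplasm. They came to 621 ± 76.8 CPM in ependymal-like cells and 56.6 ± 6.91 CPM in all other cells.

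**Figure D1:**
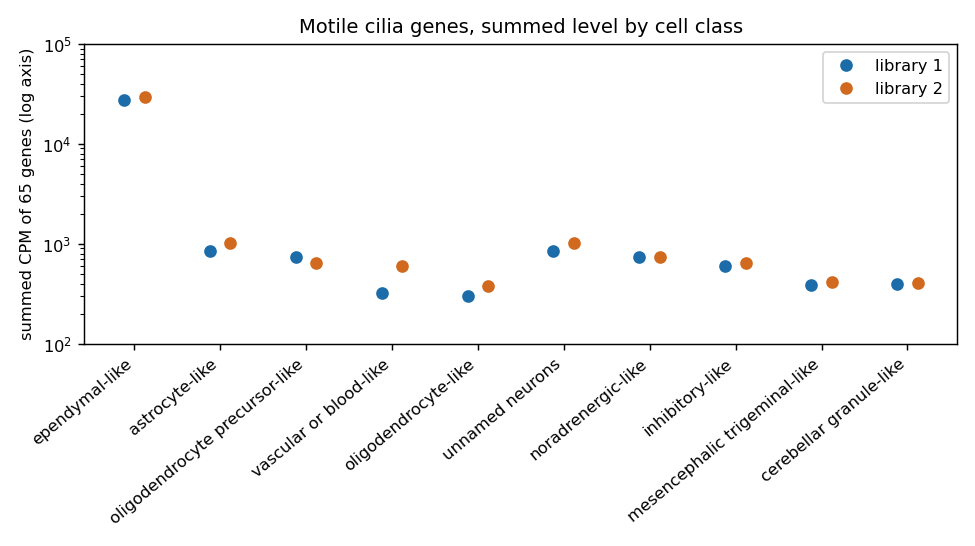
Summed level of the 65 motile cilia genes (CPM, log axis) in each named cell class and in unnamed neurons, with 1 point per library. Ependymal-like cells sit at 27240 and 29280 CPM, and every other class plotted lies between 298.9 and 1017 CPM. The unnamed non-neuronal class, with 1 cell in library 1, is not drawn.

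In every other class plotted the summed level lay between 298.9 and 1017 CPM. Astrocyte-like cells had 854.2 and 1017 CPM, and unnamed neurons, the largest class of neurons, had 851.5 and 1014 CPM. These classes did not differ beyond the spread between libraries. Noradrenergic-like neurons, the cells that define the locus coeruleus, had 740.9 and 745.7 CPM, and oligodendrocyte precursor-like cells had 731.1 and 640 CPM. Both noradrenergic values lay above both precursor values, by less than the spread between the precursor libraries for the nearer pair. Inhibitory-like neurons had 602.5 and 639.7 CPM, and vascular or blood-like cells had 322.7 and 605.7 CPM, the widest gap between the libraries. The lowest sums were those of cerebellar granule-like neurons at 397.6 and 407.9 CPM, mesencephalic trigeminal-like neurons at 383.4 and 415.8 CPM and oligodendrocyte-like cells at 298.9 and 383 CPM, and the first and second of these overlap.

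The high level was a property of nearly every ependymal-like cell. In library 1 the genes took 1.73% to 3.47% of a cell's UMIs, with a median of 2.66%, in all 19 cells. In library 2 the share ran from 0% to 4.07% with a median of 2.82%, and 99 of 101 cells lay above 1%. Outside the class no cell of library 1 exceeded 1%, and the median cell of the other classes had 0.0567%. In library 2, 22 of 2576 other cells exceeded 1%, among them 15 of 832 unnamed neurons and 3 of 733 oligodendrocyte-like cells, and these 22 cells held 9.34% of the motile cilia UMIs found outside the class. To compare detection at equal depth, each cell was thinned to 1000 UMIs. A median of 18 motile cilia genes was then seen per ependymal-like cell in both libraries, with ranges of 11 to 22 and 0 to 25. At least 1 of the genes was seen in 19 of 19 and 77 of 78 ependymal-like cells (98.7%, exact 95% binomial interval 93.1% to 100%, counting error only), after 23 shallower cells of library 2 were left out. Oligodendrocyte-like cells, which bear no motile cilia, showed at least 1 in 8 of 38 cells (21.1%, interval 9.55% to 37.3%) and 136 of 572 cells (23.8%, interval 20.3% to 27.5%). Before thinning, the median ependymal-like cell had 8967 and 1523 UMIs and 47 and 23 of the genes.

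**Figure D2:**
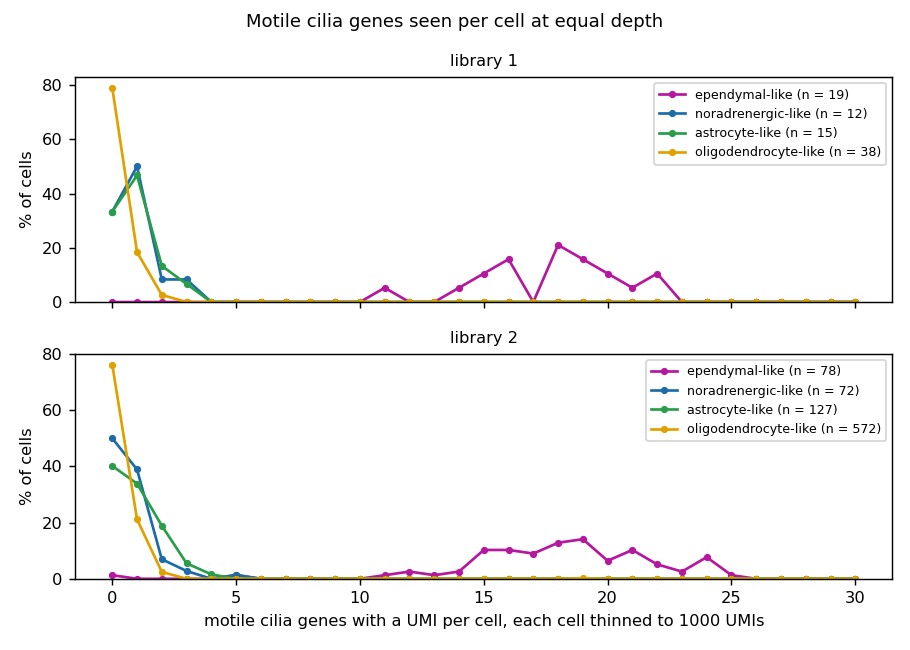
Number of motile cilia genes with a UMI per cell (x axis) against the percent of cells of the class (y axis), after thinning every cell to 1000 UMIs, for each library. Ependymal-like cells peak near 18 genes in both libraries, and the median noradrenergic-like, astrocyte-like and oligodendrocyte-like cell shows 0 to 1.

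Gene by gene, 55 of the 65 had their highest level in ependymal-like cells in both libraries, over the 10 classes with enough cells to compare. The share of a gene's UMIs that came from the ependymal-like class had a median of 63.3% and ran from 0% to 95.1%. The levels of the 65 genes in ependymal-like cells were alike in the libraries, with Pearson's r = 0.97 and Spearman's rho = 0.98 across genes on the log2(CPM + 1) scale, where genes are not independent replicates. Longer genes had higher CPM there (rho = 0.66 over the same 65 genes, whose median length is 52.7 kb), so levels are compared between genes only per length.

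The first comparison set ependymal-like cells against all other cells, to ask which of the genes set the class apart. Of the 65 genes, 60 passed edgeR's filter on low counts and were tested, and 56 rose in ependymal-like cells in a quasi-likelihood fit with edgeR (p adjusted by Benjamini-Hochberg over all genes, threshold 0.05), with the library as a block. Over all 13053 genes tested, 17.1% were called higher and 19.9% lower. A gene seen almost only in ependymal-like cells can be tested only because it is high there, so the count describes these genes and supports nothing beyond it. The median log2 fold was 5.52 over the 60 genes and -0.24 over all genes tested. None of the 60 was called lower by edgeR or by DESeq2, and none was lower at an unadjusted p under 0.05 by either tool. DESeq2 called 53 higher, and under it Rsph3a, Dnaaf2 and Cfap298 did not pass (adjusted p = 0.186, 0.112 and 0.129). Rsph3a also missed the threshold in edgeR with no low-count filter (adjusted p = 0.0756) and with unscaled markers (0.0636).

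**Figure D3:**
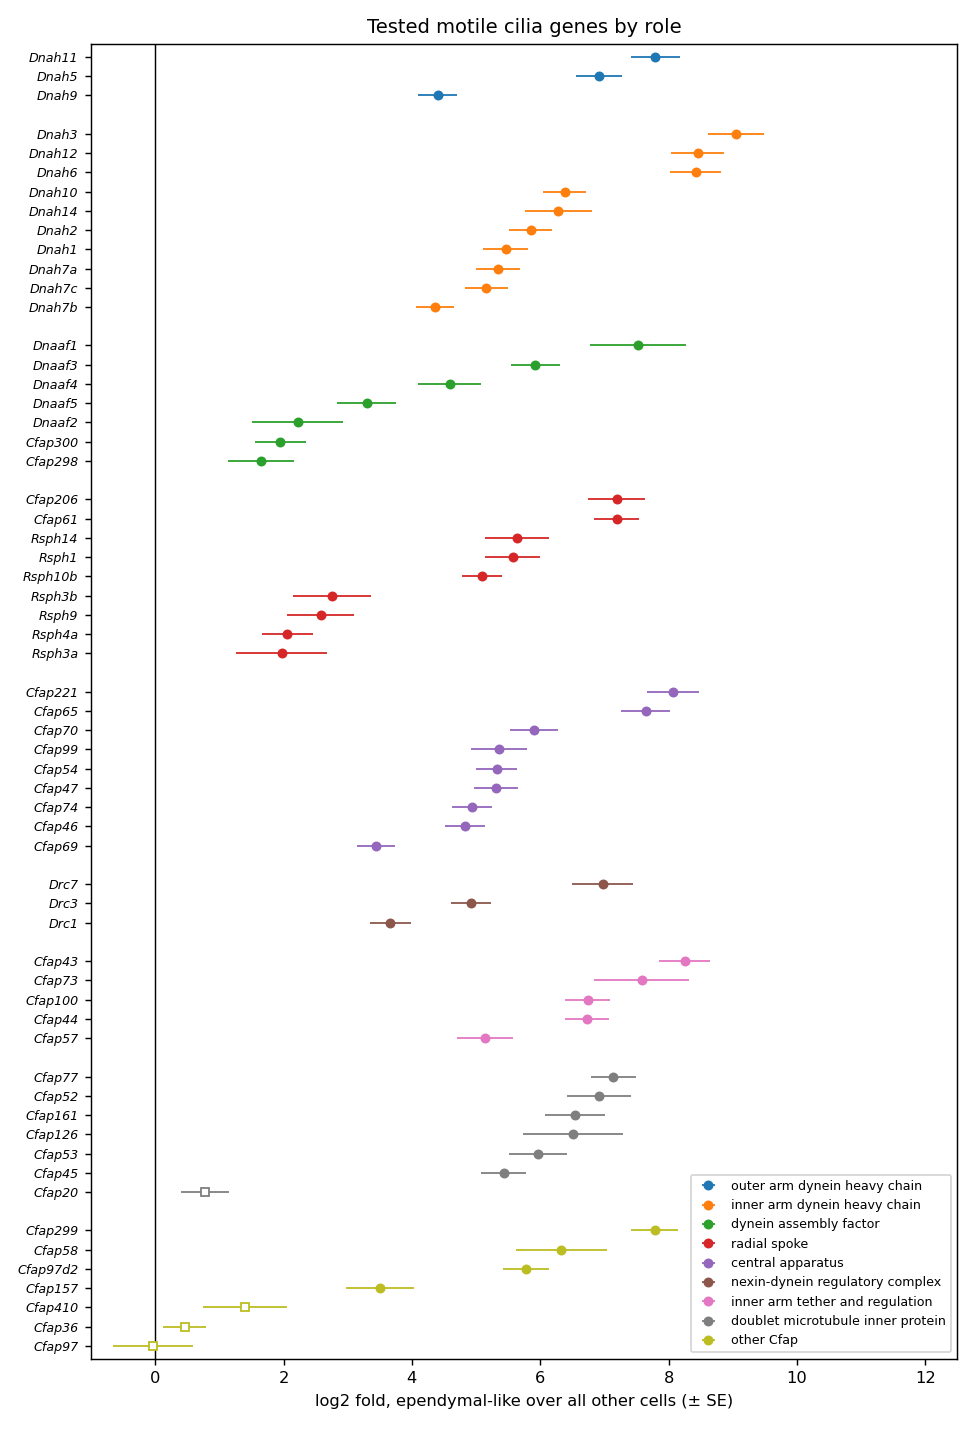
Log2 fold of ependymal-like cells over all other cells with its standard error (x axis) for the 60 tested motile cilia genes, grouped by role and sorted within it. Filled points were called higher and open squares were not called. Inner arm heavy chains all lie between 4.36 and 9.05, and the 4 open squares are Cfap20, Cfap410, Cfap36 and Cfap97.

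Dynein heavy chains are the motor proteins themselves, and the inner arm chains Dnah3, Dnah12 and Dnah6 gave the highest folds of the set. All 10 inner arm heavy chains rose. Dnah3 (chr7:119922671-120095280, minus strand, GRCm38) had 1100 and 1140 CPM in ependymal-like cells, against 0.382 and 4.00 CPM in all other cells, a log2 fold of 9.05 ± 0.43 (SE, edgeR adjusted p = 5.2e-29). Over both libraries together, 95.1% of its UMIs came from the ependymal-like class, the highest pooled share of the set, though in library 2 alone Cfap221 had 89.6% and Dnah3 89.4%. Dnah12 (chr14:26693274-26891703, plus strand), with the most UMIs of the 65 in ependymal-like cells, had 2370 and 2250 CPM there, against 2.1 and 13.3 CPM, a log2 fold of 8.45 ± 0.42. Dnah6 had 1700 and 1900 CPM, against 2.1 and 9.45 CPM, a log2 fold of 8.42 ± 0.40. The remaining inner arm chains rose by log2 folds of 4.36 to 6.38, and Dnah7b, the lowest, is taken up below with the astrocytes. Dnah7a, Dnah7b and Dnah7c are neighbouring paralogs on chromosome 1 that share 25.9% to 40.9% of their 60-base transcript words, so the split of reads among them is uncertain.

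Outer arm heavy chains fell into separate patterns. Of the UMIs of Dnah5 and Dnah11, which are known from primary ciliary dyskinesia, the class held 92.3% and 95.8% in library 1 and 69.2% and 80.9% in library 2. Dnah11 had 1250 and 1480 CPM in ependymal-like cells, against 3.06 and 10.2 CPM in all other cells, a log2 fold of 7.79 ± 0.38. Dnah5 had 743 and 588 CPM, against 3.44 and 7.69 CPM, a log2 fold of 6.92 ± 0.36. Dnah9 had 1020 and 937 CPM in ependymal-like cells, but 47.4 and 45.2 CPM in all other cells, a log2 fold of 4.40 ± 0.30. The sperm-type outer arm chains Dnah8 and Dnah17 had no UMI in ependymal-like cells, which allows up to 6.34 CPM for each over both libraries (3 counts, counting error only).

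Radial spoke genes divided by how much of them was found outside the class. All 9 tested members rose. Cfap61, at the base of a spoke, had 1060 and 1300 CPM in ependymal-like cells, against 6.49 and 9.77 CPM in all other cells, and Cfap206 had 183 and 234 CPM, against 1.34 and 1.44 CPM, with the same log2 fold of 7.19. Rsph14 had 96.7 and 120 CPM, against 1.72 and 2.56 CPM, a log2 fold of 5.64 ± 0.50. Rsph4a, Rsph9, Rsph3a and Rsph3b, of the spoke head and stalk, stood much closer to the rest of the tissue. Rsph1 and Rsph10b did not. They averaged 142 and 532 CPM in ependymal-like cells, and 5.25 and 31.8 CPM in astrocyte-like cells, their next highest class. Rsph4a, a spoke head protein, had 100 and 70.8 CPM in ependymal-like cells and 24.3 and 16.7 CPM in all other cells, a log2 fold of 2.06 ± 0.40. Rsph9, another head protein, had 51.8 and 54.4 CPM, against 9.74 and 7.85 CPM, a log2 fold of 2.58 ± 0.52. Rsph3a and Rsph3b share 52.0% and 52.2% of their 60-base transcript words with each other, and their log2 folds of 1.97 and 2.76 carry that uncertainty.

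Central apparatus, nexin link and inner arm tether genes were all called higher. Cfap221, a central apparatus protein, had 304 and 327 CPM in ependymal-like cells, against 1.15 and 1.12 CPM in all other cells (log2 fold 8.07 ± 0.40). Cfap65 had 598 and 697 CPM, against 1.34 and 5.44 CPM (7.64 ± 0.38). The other 7 central apparatus genes rose by 3.44 to 5.90, and among them Cfap46, Cfap54 and Cfap69 also had clear levels in neurons, given below. Of the nexin-dynein regulatory complex, Drc7 had 162 and 185 CPM, against 0.382 and 2.4 CPM (6.97 ± 0.47), Drc3 287 and 561 CPM, against 10.3 and 17.1 CPM (4.92 ± 0.31), and Drc1 221 and 283 CPM, against 23.7 and 16 CPM (3.66 ± 0.32). Cfap43 and Cfap44 form the tether that holds an inner arm dynein head to its doublet. Cfap43 had 1070 CPM in both libraries of ependymal-like cells, against 1.34 and 6.09 CPM (8.25 ± 0.40). Cfap44 had 1840 and 2320 CPM, against 15.9 and 23.9 CPM (6.73 ± 0.34).

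Cfap44 and Dnaaf3 led the set when levels were divided by the whole span of the gene, introns included. Whether reads in introns were counted is not stated, so the ranking holds for this measure only. Per 10 kb of gene, Dnaaf3 had 236 CPM and Cfap44 had 237 CPM in ependymal-like cells (means of the libraries), ahead of Cfap100 at 199 CPM, Cfap65 at 193 CPM and Cfap46 at 170 CPM. Dnah12, with the most UMIs there, had 116 CPM per 10 kb. Cfap299, spread over 473 kb of chromosome 5, had 44.1 CPM per 10 kb. Cfap299 shares part of its span with a predicted gene on the same strand, and Dnaaf3 with Tnni3. In all, 6 of the genes overlap another gene on the same strand and 36 overlap a gene on the other strand, so some of their reads may belong to a neighbour.

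Doublet microtubule inner proteins, which line the inside of the axonemal doublets, rose in 6 of 7 cases. Cfap77 had 446 and 594 CPM in ependymal-like cells, against 2.86 and 4.48 CPM in all other cells (log2 fold 7.14 ± 0.35), Cfap52 138 and 131 CPM, against 0.382 and 1.76 CPM (6.92 ± 0.50), and Cfap161 117 and 163 CPM, against 1.34 and 1.60 CPM (6.54 ± 0.47). Cfap20, which also acts in non-motile cilia, was not called, with 96.7 and 65.3 CPM in ependymal-like cells and 47.4 and 48.7 CPM in all other cells (0.78 ± 0.37, edgeR adjusted p = 0.0942). Dynein assembly factors all rose but over a wide range. Dnaaf1 had 44.9 and 92.6 CPM, against 0.191 and 0.480 CPM (7.52 ± 0.75), and Dnaaf3 204 and 245 CPM, against 3.63 and 3.68 CPM (5.92 ± 0.38). Cfap298, at the low end, had 44.9 and 43.6 CPM, against 16 and 11.9 CPM (1.65 ± 0.51).

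Genes of the set with no settled place in the axoneme held the exceptions. Cfap299 had 2160 and 2010 CPM in ependymal-like cells, against 7.45 and 11.7 CPM in all other cells (log2 fold 7.78 ± 0.37), Cfap58 51.8 and 65.3 CPM, against 0.573 and 0.801 CPM (6.33 ± 0.71), and Cfap97d2 259 and 261 CPM, against 4.01 and 5.44 CPM (5.78 ± 0.36). Cfap410, a centrosomal protein, was not called, with 31.1 and 16.3 CPM, against 9.17 and 9.45 CPM (1.40 ± 0.66, edgeR adjusted p = 0.0878). Cfap36, which binds a small GTPase of primary cilia, had 104 and 109 CPM, against 84.4 and 69.3 CPM (0.46 ± 0.33, edgeR adjusted p = 0.29). Cfap97 had 17.3 and 21.8 CPM, against 21.8 and 16.7 CPM (-0.03 ± 0.62), and was the only member whose highest class was noradrenergic-like neurons in both libraries, at 30.4 and 32.6 CPM. The groups overlapped for Cfap97 and did not for Cfap36, Cfap410 and Cfap20. 5 genes did not pass the filter on low counts in this comparison and were not tested, namely Dnah8 with 39 UMIs in all cells, Dnah17 and Rsph6a with 31 each, Cfap97d1 with 3 and Dnah2os with 2. Of these, Rsph6a alone had UMIs in ependymal-like cells, 3 of them.

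Against astrocyte-like cells, the glial class nearest to ependymal cells by origin, 52 of 53 tested genes rose in ependymal-like cells. Over all 4505 genes tested in this comparison, 25.4% were called higher and 16.4% lower by edgeR. Here too, a gene without astrocyte UMIs can be tested only because it is high in ependymal-like cells. The count describes these genes and supports nothing beyond it. No gene of the set was called lower by edgeR or DESeq2, and none was lower at an unadjusted p under 0.05. Of the 52, 12 had no UMI in the 15 and 281 astrocyte-like cells. They include Cfap77 (at least 62.7-fold higher, against a floor of 3 counts over both libraries), Dnah7a (at least 34.5-fold), Cfap45 (at least 31.6-fold) and Dnah1 (at least 31.3-fold). DESeq2 did not call these 4 (adjusted p = 0.151 to 0.201) and called 36 genes in all. Dnah6 had 1 UMI in astrocyte-like cells and was 663-fold higher by pooled counts, with a 95% counting interval of 119 to 26200. With the unseen genes set at their bound, the median log2 fold of the 53 was 4.56.

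Dnah7b was the inner arm chain with a clear astrocyte level. It had 608 and 719 CPM in ependymal-like cells, against 254 and 153 CPM in astrocyte-like cells, a log2 fold of 1.94 ± 0.32 (edgeR adjusted p = 1.7e-08), and its 66 astrocyte UMIs were the most of any member there. The libraries did not overlap between the classes. Cfap74 of the central apparatus had 667 and 773 CPM, against 34.6 and 122 CPM in astrocyte-like cells (3.17 ± 0.36), and Cfap44 had 1840 and 2320 CPM, against 69.3 and 87.1 CPM (4.85 ± 0.37). Cfap36 was the single gene that missed the threshold, with 104 and 109 CPM, against 46.2 and 55.7 CPM (1.16 ± 0.51, edgeR adjusted p = 0.0573).

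Outside the ependymal-like class, neurons were compared with the remaining non-neuronal cells, and 13 of 48 tested genes rose in neurons and 3 fell. Over all 12963 genes tested, edgeR called 27.0% higher and 26.6% lower, so the share of motile cilia genes called higher was close to that of all genes and is no result about the set. DESeq2 called 3 higher and 1 lower, and edgeR called 9 lower with unscaled markers and 7 lower without a neuron cluster that held macrophage genes. Without the cells that had UMIs of 2 or more ependymal markers, the counts were again 13 higher and 3 lower. Dnah9 had 52.3 and 59.8 CPM in neurons, against 12.3 and 11.6 CPM in the other non-neuronal cells, a log2 fold of 2.08 ± 0.29 (edgeR adjusted p = 6.31e-12). Cfap46, a central apparatus gene, had 56.7 and 63.1 CPM, against 7.68 and 13.7 CPM (2.17 ± 0.29), and the spoke head gene Rsph4a had 27.5 and 21.4 CPM, against 1.54 and 5.79 CPM (2.14 ± 0.43). Neither neuron library overlapped the non-neuronal ones for these genes. Rsph9 had 10.9 and 10.4 CPM, against 1.54 and 2.11 CPM (2.21 ± 0.66), and Cfap157 had 5.89 and 8.52 CPM, against 0 and 2.11 CPM (2.15 ± 0.78). DESeq2 called neither of the last genes (adjusted p = 0.15 and 0.217).

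Set against their ependymal-like level, the neuronal levels differed from gene to gene by orders of magnitude. The neuron to ependymal-like ratio of CPM was computed for each gene in each library, and the part of free RNA in it was not tested. The ependymal marker Tmem212 stood at 0.00048 and 0.0014, and Dnah3 at 0.0004 and 0.003. The ratio was 0.051 and 0.064 for Dnah9, 0.038 and 0.047 for Cfap46, 0.11 and 0.11 for Cfap69, 0.27 and 0.3 for Rsph4a, 0.82 and 0.75 for Cfap36 and 1.3 and 0.9 for Cfap97. Under 0.01 lay 19 of 61 genes in library 1 and 16 of 60 in library 2. At 0.1 or more in both libraries lay 11 genes, which were Cfap20, Cfap298, Cfap300, Cfap36, Cfap410, Cfap69, Cfap97, Dnaaf2, Rsph3a, Rsph4a and Rsph9. No heavy chain was among them.

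**Figure D4:**
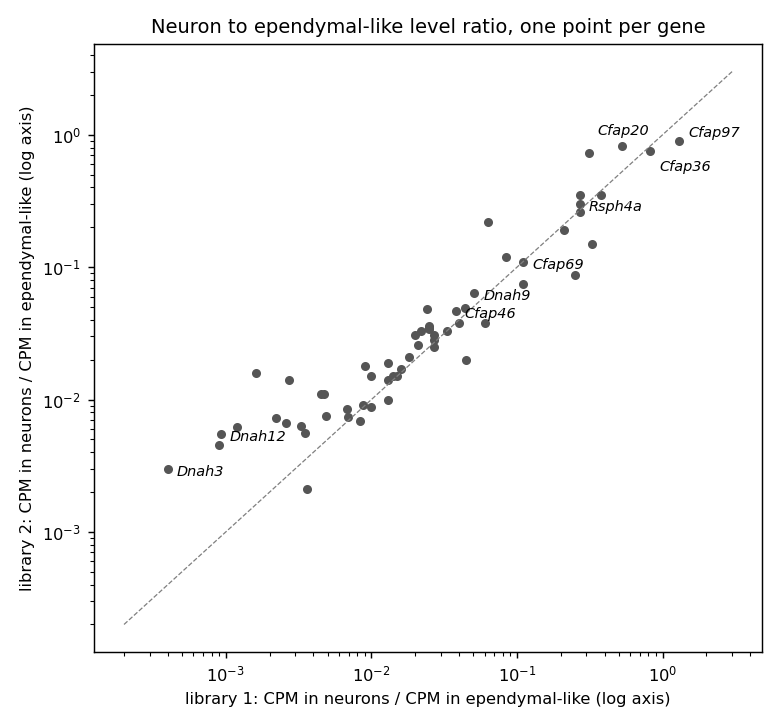
CPM in neurons divided by CPM in ependymal-like cells for 60 motile cilia genes, library 1 on the x axis and library 2 on the y axis (both log), with the line of equal values dashed. Dnah3 and Dnah12 lie below 0.01 in both libraries, Dnah9 and Cfap46 near 0.05, and Cfap20, Cfap36 and Cfap97 above 0.5.

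Noradrenergic-like neurons, 12 and 74 cells with 987938 and 705424 UMIs, were compared with all other neurons. Of 37 tested genes, 3 rose and 4 fell, where edgeR called 15.1% of all 11613 genes higher and 14.7% lower. Dnah9 (chr11:65831282-66168551, minus strand) rose, with 102 and 112 CPM in noradrenergic-like neurons, against 38.6 and 49.7 CPM in other neurons, a log2 fold of 1.24 ± 0.18 (edgeR adjusted p = 0.00078). It was the single call DESeq2 kept. Both noradrenergic values lay above those of each other neuron class, which were 58.3 and 69.9 CPM in unnamed neurons, 24.0 and 24.6 CPM in inhibitory-like neurons, 2.75 and 1.64 CPM in trigeminal-like neurons, and 4.1 and 0 CPM in granule-like neurons. A Dnah9 UMI was present in 12 of 12 and 38 of 74 noradrenergic-like cells, against 62 of 188 and 137 of 1137 other neurons, at unequal depth. After thinning to 1000 UMIs the shares were 0 of 12 and 6 of 72 (8.33%), against 12 of 188 (6.38%) and 60 of 955 (6.28%). The 0 of 12 allows up to 25% of cells with a UMI at that depth (3 counts). A difference in library 1 was therefore not detectable there. In library 2 the intervals overlapped, at 3.12% to 17.3% for noradrenergic-like cells and 4.83% to 8.01% for other neurons (counting error only). Detection of Dnah9 at that depth thus separated the groups in neither library. Oligodendrocyte-like cells showed 1 of 38 (2.63%) and 4 of 572 (0.699%) at that depth, where the median of their own UMIs was 9789.5 and 1415.

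The other 6 calls in noradrenergic-like neurons were made by edgeR and not by DESeq2. With no low-count filter, edgeR called 8 genes lower in place of 4. Cfap46 fell, with 28.3 and 28.4 CPM in noradrenergic-like neurons, against 64.5 and 69.8 CPM in other neurons (log2 fold -1.29 ± 0.22, edgeR adjusted p = 0.00194, DESeq2 adjusted p = 0.0605). Cfap69 fell, with 19.2 and 22.7 CPM, against 43.1 and 50.3 CPM (-1.20 ± 0.25, DESeq2 adjusted p = 0.183). Dnah7b fell, with 20.2 and 7.09 CPM, against 28.4 and 40.7 CPM (-1.26 ± 0.40), and its log2 fold was -0.52 in library 1 and -2.41 in library 2 alone. Cfap36 fell, with 60.7 and 62.4 CPM, against 91.2 and 85.5 CPM (-0.57 ± 0.18). Cfap54 rose, with 44.5 and 61.0 CPM, against 30.6 and 30.0 CPM (0.73 ± 0.23), by 0.47 in library 1 and 0.96 in library 2 alone. Cfap410 rose, with 17.2 and 21.3 CPM, against 7.51 and 10.2 CPM (1.08 ± 0.36). Without the library block, Cfap54, Cfap410 and Cfap36 did not pass in edgeR (adjusted p = 0.0565, 0.0661 and 0.0721), Cfap410 did not pass with no low-count filter (0.0536), and Dnah7b did not with 2 times the doublets removed (0.0585). The DESeq2 adjusted p of these 6 ran from 0.0605 to 0.533.

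**Figure D5:**
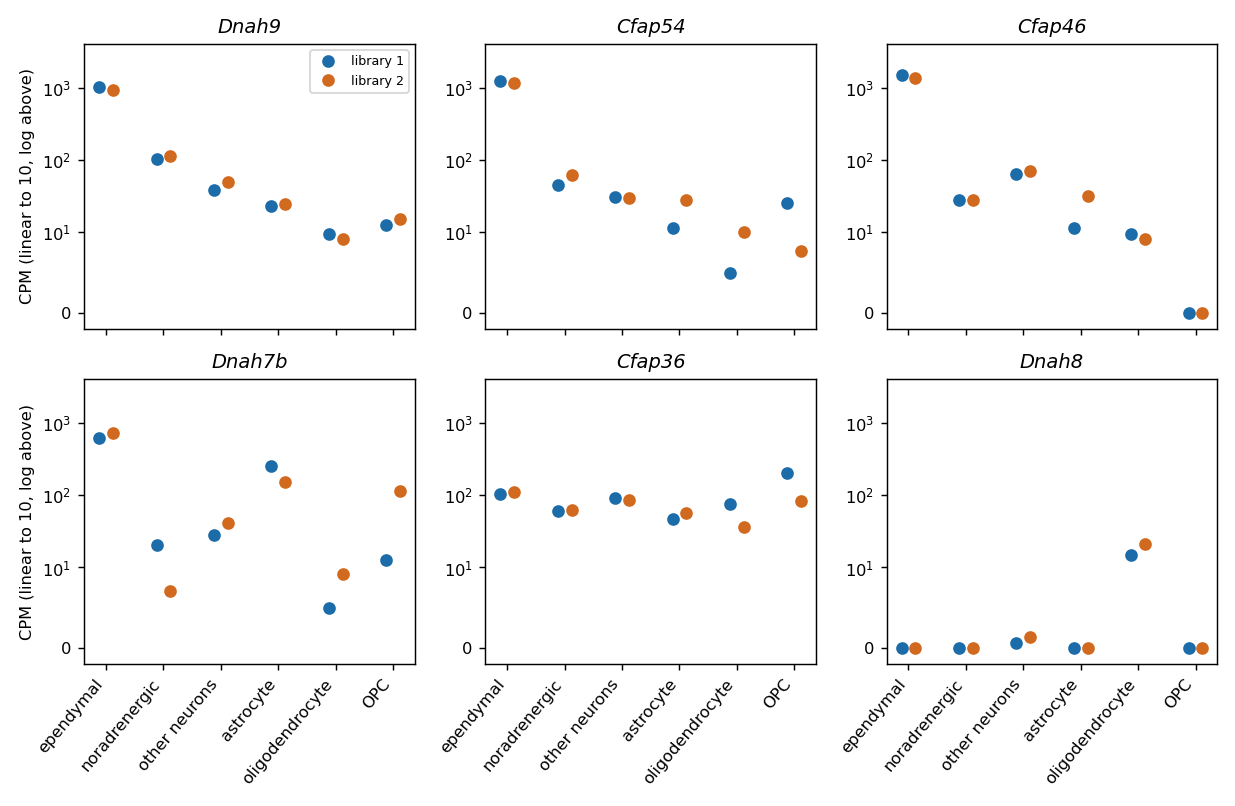
CPM of Dnah9, Cfap54, Cfap46, Dnah7b, Cfap36 and Dnah8 by cell class, 1 point per library (y axis linear up to 10 CPM and logarithmic above). Dnah9 stands at 1020 and 937 CPM in ependymal-like cells, at 102 and 112 CPM in noradrenergic-like neurons and at 38.6 and 49.7 CPM in other neurons, and Dnah8 appears in oligodendrocyte-like cells at 14.7 and 20.9 CPM.

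Dnah8 and Dnah17, heavy chains known mainly from the sperm tail, had another distribution. Dnah8 (chr17:30624354-30877365, plus strand) had 6 and 25 UMIs in oligodendrocyte-like cells, spread over 6 of 38 and 21 of 733 cells, which were 31 of its 39 UMIs. That was 14.7 and 20.9 CPM, against 0 CPM in ependymal-like, astrocyte-like, precursor-like and noradrenergic-like cells of both libraries. Precursor-like cells had only 77968 and 131254 UMIs, and astrocyte-like cells of library 1 had 86628. With a floor of 3 counts, 0 CPM there cannot be told from the oligodendrocyte-like level of the same library. In neurons Dnah8 fell, with 0.436 and 1.15 CPM, against 9.21 and 13.7 CPM in the non-neuronal cells other than ependymal-like (log2 fold -3.97 ± 0.72, edgeR adjusted p = 1.98e-07), and DESeq2 kept this call. Dnah17 had 9.8 and 7.53 CPM in oligodendrocyte-like cells and 0 CPM in ependymal-like cells. Its highest class was oligodendrocyte-like in library 1 and vascular or blood-like in library 2. Before thinning, 2 of 38 and 9 of 733 oligodendrocyte-like cells had a Dnah17 UMI. So did 5 of 188 and 10 of 1137 neurons other than noradrenergic-like. In neurons Dnah17 had 1.31 and 2.30 CPM, against 6.14 and 5.79 CPM (-1.82 ± 0.77, edgeR adjusted p = 0.0367), and it did not pass in DESeq2 (adjusted p = 0.287), in edgeR with no low-count filter (0.0848) or in cells with at least 500 genes (0.0747). Dnah10, an inner arm chain, was also called lower in neurons, with 5.23 and 6.67 CPM, against 4.61 and 19.0 CPM. It rested on library 2, since its log2 fold was -0.03 in library 1 and -1.60 in library 2, and DESeq2 did not call it (adjusted p = 0.495). Dnah8 overlaps Glo1 and other genes on the opposite strand.

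Other genes of the cilium were followed in the comparison of ependymal-like with all other cells. Over all genes tested in it, edgeR called 17.1% higher and 19.9% lower. Of 84 tested further motile cilia genes, 79 rose and none fell by edgeR, and DESeq2 called 78 higher and none lower; none was lower at an unadjusted p under 0.05 by either tool. Spag17, a central apparatus protein, had 1150 and 1110 CPM in ependymal-like cells, against 0.955 and 6.41 CPM in all other cells (log2 fold 8.37 ± 0.41), and Ttc29, an inner arm protein, 425 and 310 CPM, against 0.382 and 1.12 CPM. Spata18 had 107 and 131 CPM and no UMI in any other cell. Of 11 tested regulators of multiciliation, 6 rose, among them Myb at 65.6 and 43.6 CPM, against 0.955 and 0.48 CPM, Deup1, which amplifies centrioles, at 34.5 and 59.9 CPM, against 1.34 and 1.76 CPM, and Rfx2 at 370 and 419 CPM, against 15.9 and 18.3 CPM (4.53 ± 0.31). Against astrocyte-like cells, edgeR called 73 of 76 tested further motile cilia genes higher and none lower, and DESeq2 55 higher and none lower. Of 6 regulators tested there, edgeR called 4 higher and 1 lower, and DESeq2 2 higher and none lower. Over all genes tested in that comparison, edgeR called 25.4% higher and 16.4% lower. Foxj1 and Trp73 served as markers and were not counted. The lists of other cilium and dynein genes were drawn up with earlier results of these data known. As above, a gene seen almost only in ependymal-like cells can be tested only because it is high there. The counts describe the listed genes and support nothing beyond them.

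Genes that primary cilia share were counted in the same way. Of 45 tested intraflagellar transport and primary cilium genes, edgeR called 30 higher and 1 lower in ependymal-like cells, and DESeq2 called 21 higher and 1 lower, where edgeR called 17.1% of all genes higher and 19.9% lower. Their median log2 fold was 1.71. Against astrocyte-like cells edgeR called 23 of 31 higher and none lower, where it called 25.4% of all genes higher and 16.4% lower. DESeq2 called 7 higher and none lower, and none was lower at an unadjusted p under 0.05 by either tool. Ift88, a core transport protein, had 283 and 305 CPM in ependymal-like cells, against 36.9 and 37.8 CPM in all other cells (log2 fold 2.98 ± 0.29), and Ttc26 had 62.2 and 92.6 CPM, against 8.59 and 7.85 CPM. Ahi1 was the gene that fell, with 114 and 201 CPM, against 783 and 660 CPM (-2.24 ± 0.32).

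Genes of cytoplasmic dynein and dynactin, the motor of transport inside cells, were set against all other cells too. Among those, neurons held 83.0% and 67.6% of all UMIs of the libraries. Over all genes tested in this comparison, edgeR called 17.1% higher and 19.9% lower. Of 20 tested, 11 fell and none rose by edgeR, with a median log2 fold of -1.26, and DESeq2 called 5 lower and none higher; none was higher at an unadjusted p under 0.05 by either tool. Against astrocyte-like cells neither tool called any of 12 tested, and the median log2 fold was 0.01; at an unadjusted p under 0.05, edgeR had 1 higher and 1 lower and DESeq2 none. Dync1i1, an intermediate chain, had 17.3 and 27.2 CPM in ependymal-like cells, against 317 and 262 CPM in all other cells (-3.77 ± 0.42), and Dynll2 had 69.1 and 81.7 CPM, against 537 and 461 CPM. Dynlt3 had 3.45 and 10.9 CPM, against 59.6 and 41.2 CPM (-3.01 ± 0.71), but DESeq2 did not call it (adjusted p = 0.053), and its log2 fold was 0.14 when ependymal-like cells were taken by a gate of 3 markers.

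RFX factors, which switch on ciliary genes, bind sites built from the core GTTGCC, and their letters were sought in the promoters of the set. RefSeq windows from 250 bases before to 50 bases after each gene start (GRCm38.p6) were at hand for 52 of the 65 genes by symbol. The core with an added AT, GTTGCCAT, was read on either strand in 6 of 52 genes (11.5%) and in 1.54% of all 27025 genes. The full RFX site, a palindrome of the core with its own reverse complement, stood in 1 gene of the set, Cfap298 (1.92%), and in 0.529% of all. The core GTTGCC alone, which every match of GTTGCCAT contains and which was chosen after the others had been read, stood in 19 of 52 (36.5%) and in 14.1% of all. The forkhead site GTAAACA stood in 3 of 52 (5.77%) and in 4.05% of all. The stretches below show the 6 genes with GTTGCCAT or the full site before their start, on the gene's own strand, with the site in capitals. They are set out because the same core recurs before the start of genes that differ widely in how far they stood above the other cells.
Cfap44, chr16:44394768-44394795, plus strand: ggacgttgctATGGCAACcgcagtaaac
Cfap97d2, chr8:13705858-13705885, plus strand: cctgggtgccATGGCAACcgtcacatga
Cfap161, chr7:83794863-83794890, minus strand: cctggtcgtcATGGCAACgaagcacgct
Dnaaf2, chr12:69198423-69198450, minus strand: aggcgttactATGGCAACaaagcacgcg
Cfap74, chr4:155409193-155409220, plus strand: gcagccttccGTTGCCATggagctgcgc
Cfap298, chr16:90935016-90935045, minus strand: gggttttgGTTGCCCGGGCAACagctactt
The first base of the site lay 21 bases before the start in Cfap44 and Cfap97d2, 41 in Cfap161, 11 in Dnaaf2, 37 in Cfap74 and 188 in Cfap298. In the first 4 the capitals spell ATGGCAAC, the reverse complement of GTTGCCAT, and in Cfap298 the full site reads the same on both strands. In a second window of Cfap74, with another start, GTTGCCAT began 13 bases after that start. Dnaaf4 held GTTGCCAT after its start and is not shown. The log2 folds of these 6 genes in ependymal-like cells were 6.73 for Cfap44, 5.78 for Cfap97d2, 6.54 for Cfap161, 2.22 for Dnaaf2, 4.94 for Cfap74 and 1.65 for Cfap298. A match is a run of letters and not a measured binding site, and windows without a match show only that these letters are not in them.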

How the data were processed

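Matrices of UMI counts per gene and barcode were deposited by the authors for each library. Per the file headers they were written by Cell Ranger 6.1.2, while the submitters' processing notes list version 7.0 of that program, Seurat, and mm10 and GRCm38 as builds. Whether reads were counted by strand or in introns is not given in the sources used here. Cells had to show 300 genes or more and no more than 20% mitochondrial counts, and Scrublet doublets were removed at 0.8% per 1000 barcodes. Cells were clustered with scanpy 1.11.5 (Leiden, resolution 1.0, 20 components, 15 neighbours) on 177 z-scaled markers from 25 lists; scaling was chosen after unscaled markers had merged microglia with ependymal cells. A class name needed at least 3 markers. UMI counts were summed per class and library and tested with edgeR 4.0.16 (TMM factors, filterByExpr, quasi-likelihood, library as a block, two-sided, Benjamini-Hochberg over all genes tested, threshold 0.05, prior count 2), with DESeq2 1.42.0 as an alternative; the steps were tested on simulated data. The libraries pair the sums because both classes of each comparison come from the same preparation. The labelled batch is the library, so batch values are the values per library.

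Most genes were named by a rule. In the first comparison it took the 3 largest folds of each role, every outer arm chain and the 3 genes nearest the threshold. In the others it took the 5 largest calls each way. Cfap74, Cfap44, Dnah7b, Cfap36 and Cfap97 were added after their values were seen. Cfap298, Rsph1, Rsph10b, Rsph3a and Rsph3b, among others, were also named outside the rule. Levels of Cfap70, Cfap73 and Dnaaf4, which the rule picked, are not given in the text. A gene named by the rule for the other cilium lists is not reported here. Members and lists were chosen with earlier results of these data known. Gene positions are from GENCODE M21, matched for all 65 genes. Intervals are exact 95% binomial and cover counting error only.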

Additional observations from a re-analysis of the deposited data

How the results depend on the processing

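In the first comparison, 53 to 56 genes were called higher and 0 lower under every alternative run, and against astrocyte-like cells 36 (DESeq2) to 53 higher and 0 lower. Among noradrenergic-like neurons the counts depended on the tool and model. DESeq2 gave 1 higher and 0 lower, the fit with no replicate block gave 1 higher and 3 lower, and no low-count filter gave 8 lower. In neurons against other non-neuronal cells, DESeq2 gave 3 higher and 1 lower, unscaled markers 9 lower, and leaving out a neuron cluster with macrophage genes 7 lower; the last 2 alternatives were chosen after seeing the data. Dynlt3 turned to a log2 fold of 0.14 when ependymal-like cells were taken by a gate of 3 markers; the cause was not tested. Without replicate 1 or replicate 2, the ependymal-like share of motile cilia UMIs was 53.9% to 69.3% and the share of cells with a member 98.7% to 100%; each library alone gives no test. Over all genes, DESeq2 called 2480, 661, 1235 and 3738 in the 4 comparisons, against 4827, 1886, 3455 and 6944, and the marker gate 3183 in the first. With 2 libraries, 5 genes of the set did not pass the low-count filter of the first comparison and have no call there.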

Other observations

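Several values stood outside the comparisons. Dnah10 and Dnah5 each had 9 UMIs in oligodendrocyte precursor-like cells of library 2, 68.6 CPM for each gene. In library 1 that class of 11 cells had 0 CPM of Dnah10 and 12.8 CPM of Dnah5. Cfap36 was high in the same class, at 205 CPM in library 1 and 83.8 CPM in library 2. Rsph6a, a spoke head gene known from sperm, had 3 UMIs in ependymal-like cells of library 1 and none in library 2, and its 31 UMIs were spread over most classes.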
